A study of Homo sapiens with 346 samples.

Results

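The 18S and 28S ribosomal RNAs were followed in single cells of 2 human lines, each sequenced alive and after fixation. They were given by the rows RNA18S5 and RNA28S5, which are 2 of 31463 gene rows listed over both tables (28806 for HCT-116 and 29551 for HepG2). The rows were chosen from earlier results on these same cells, in which the level of 18S differed between live and fixed cells. Their levels, their ratio and their relation to the other genes are therefore descriptions, and no test was run on them. Of the lines, HCT-116 was derived from a colorectal carcinoma, and the name HepG2 belongs to a line from a liver carcinoma. Live cells were stained with propidium iodide and sorted into plates, while fixed cells were held in 80% methanol at -80 °C for 1 week, rehydrated and then sorted. Both kinds of cell came from the same suspension, and single-cell libraries were made with Smart-seq2, which copies RNA from an oligo-dT primer into full-length cDNA. The tables held 91 live and 92 fixed HCT-116 cells, and 68 live and 83 fixed HepG2 cells, or 334 of 346 labelled cells.

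Each deposited sample was 1 cell, and the labels name no culture. The HCT-116 experiment was done once, and the labels do not tell the repeat experiments of HepG2 apart. Each line and treatment was hence taken as 1 sample, SDs are over cells, and no p-value was computed. Libraries were made from live cells first and from fixed cells afterwards, so that fixation and library batch cannot be told apart. The median depth per cell ranged from 1.8 to 2.5 M reads (M, mega) over the 4 groups. In the cells labelled HepG2, 0 of 17 hepatocyte marker genes exceeded 1 TPM (a level divided by transcript length and scaled to the same total over all transcripts of a cell) in at least 50% of the cells. Only 10 of the 17 had a row, and their summed level had a median of 0.365 TPM (0 to 36.1) in live and of 0.246 TPM (0 to 89.7) in fixed cells. The line is thus named here by its label.

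Several HepG2 columns stood apart. One live and one fixed column held identical values over all 29551 genes. Another live column had 20.5% of its reads assigned to a transcript and 712 TPM of 18S. A further 6 fixed columns each correlated above 0.95 with another HepG2 column. Ratios of levels, the 28S to 18S ratio and correlations of the rRNA are also given without these columns.

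Ribosomes are built from a small subunit around 18S and a large subunit around 28S, 5.8S and 5S rRNA. RNA polymerase I copies tandem repeats in the nucleolus into a 45S precursor, from which 18S, 5.8S and 28S are cut in equal numbers, while 5S is made by RNA polymerase III. Mature rRNA carries no long poly(A) tail, although most RNA of a cell is ribosomal. Reads of rRNA in an oligo-dT library are therefore a small and uneven sample of it, and TPM of these rows is not a count of ribosomes.

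In RefSeq, RNA18S5 is now named RNA18SN5 and spans 1869 bases, on the plus strand of the unplaced scaffold chrUn_GL000220v1:109078-110946 of the GRCh38 genome. RNA28S5 is now RNA28SN5, with 5070 bases at chrUn_GL000220v1:113348-118417. Both are non-coding, single-exon genes within the 13357 bases of RNA45SN5, where 18S takes positions 3655 to 5523 and 28S positions 7925 to 12994. The 5.8S sequence lies between them, at 6601 to 6757. Reads from any of the 3 can therefore also match the precursor, and how many each row received depends on the quantification. The rDNA repeats are near-identical, so that a row stands for all copies and not for 1 locus.

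The 2 molecules differ in base composition. 18S had 56.1% GC and 28S 69.4% GC. The longest run of A in 18S was 6 bases, from position 808, and 3 runs had 5 or more. In 28S no run exceeded 4 bases, of which there were 7. Runs as long as these are common: 63.1% of 20017 protein-coding reference transcripts held a run of at least 6 A, and 96.2% one of at least 4. The most A-rich stretches are printed because an oligo-dT primer pairs with A. Where the cDNAs began cannot be read from these tables, and the part of these stretches in the levels was not tested. Capitals mark the longest run of A, or the window of 20 bases with the most A (12 in 18S and 11 in 28S), and positions count from 1 at the 5′ end of the mature RNA.
18S, bases 783 to 838: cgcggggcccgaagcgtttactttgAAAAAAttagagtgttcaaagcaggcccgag
18S, bases 492 to 551: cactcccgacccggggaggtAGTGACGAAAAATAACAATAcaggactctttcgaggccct
28S, bases 350 to 409: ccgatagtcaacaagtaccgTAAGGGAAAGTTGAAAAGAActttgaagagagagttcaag

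18S, the RNA of the small subunit, was lower in fixed than in live cells of both lines. In live HCT-116 cells it ranged from 165774 to 403621 TPM, with a median of 245511 TPM. Fixed HCT-116 cells ranged from 37413 to 137995 TPM, with a median of 74716 TPM. The groups did not overlap, as all 92 fixed cells were below the lowest live cell. For this and the later counts of cells outside the other group's range, the share over all genes is not given here. The mean was 255152 ± 48162 TPM (SD, 91 cells) in live and 76548 ± 21040 TPM (SD, 92 cells) in fixed cells, a ratio of 0.30. At least 2-fold lower means were found for 8.84% of the 11813 genes tested in HCT-116, and 347 genes (2.94%) had a lower ratio than 18S.

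In live HepG2 cells 18S ranged from 712 to 79498 TPM, with a median of 57001 TPM. Fixed HepG2 cells ranged from 4140 to 48884 TPM, with a median of 23207 TPM. The groups overlapped here, although all 83 fixed cells were below the live median and 49 of 68 live cells were above the highest fixed cell. The mean was 55075 ± 17091 TPM (SD, 68 cells) in live and 22615 ± 8309 TPM (SD, 83 cells) in fixed cells, a ratio of 0.411. Of 12486 genes tested in HepG2, 9.76% were at least 2-fold lower, and 827 (6.62%) had a lower ratio than 18S. The ratio was 0.409 without the identical columns, 0.405 without the column of few assigned reads and 0.415 without the 6 very similar ones.

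28S, the RNA of the large subunit, went the other way and was higher in fixed cells. In live HCT-116 cells it ranged from 0 to 761 TPM, with a median of 259 TPM, and 1 cell was listed at 0. Fixed HCT-116 cells ranged from 131.3 to 2577 TPM, with a median of 1123 TPM. Of the 92 fixed cells, 82 were above the highest live cell and 2 were below the live median. The mean was 255 ± 101.5 TPM (SD, 91 cells) in live and 1188 ± 442 TPM (SD, 92 cells) in fixed cells, a ratio of 4.66. At least 2-fold higher means were found for 2.99% of the genes tested, and 75 (0.635%) had a higher ratio than 28S.

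**Figure D1:**
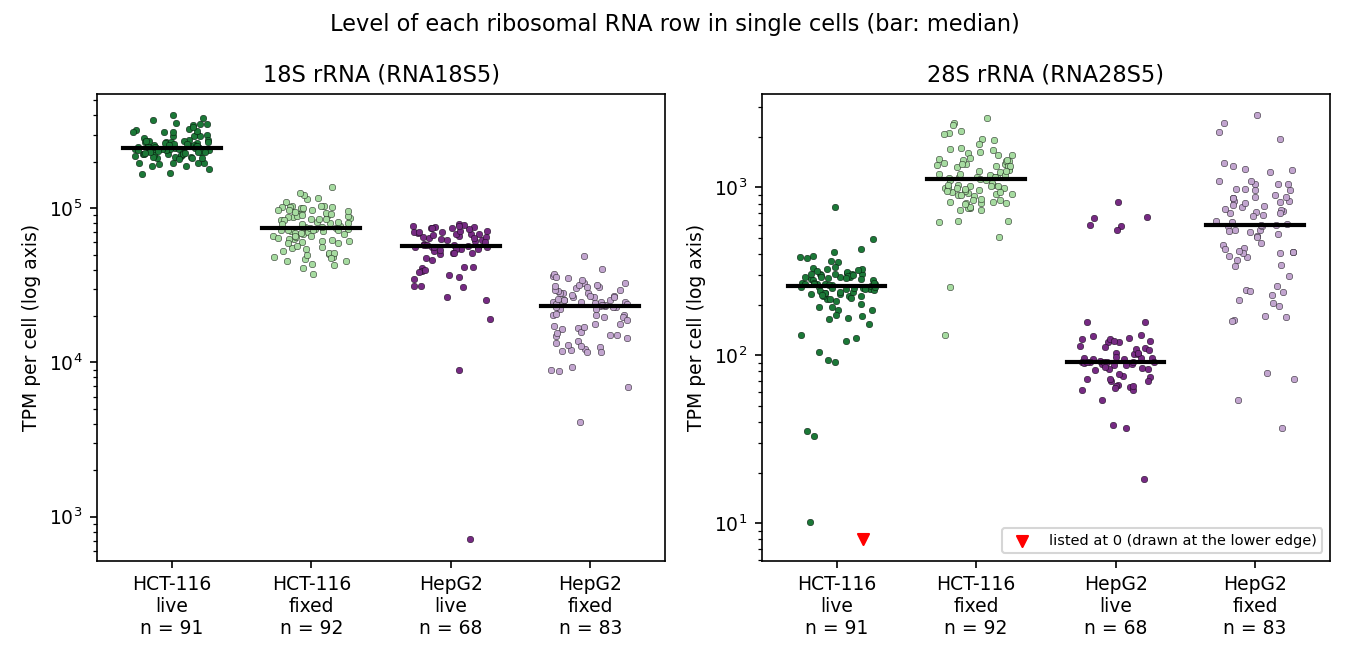
TPM per cell (log axis) of 18S (left) and 28S (right) in the 4 groups, with 1 point per cell and a bar at the median. The 18S medians fall from 245511 to 74716 TPM in HCT-116 and from 57001 to 23207 TPM in HepG2, while the 28S medians go from 259 to 1123 TPM and from 91.6 to 599 TPM.

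In live HepG2 cells 28S ranged from 18.3 to 822 TPM, with a median of 91.6 TPM. Fixed HepG2 cells ranged from 36.9 to 2704 TPM, with a median of 599 TPM. The groups overlapped: 26 of 83 fixed cells were above the highest live cell and 79 were above the live median. The mean was 140 ± 162.6 TPM (SD, 68 cells) in live and 689 ± 490 TPM (SD, 83 cells) in fixed cells, a ratio of 4.91. In HepG2, 4.89% of the genes tested were at least 2-fold higher, and 71 (0.569%) had a higher ratio than 28S. Without the identical columns the ratio was 4.91, without the column of few assigned reads 4.84 and without the 6 very similar columns 5.12.

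Live HepG2 cells fell into separate ranges of 28S. Of the 68 cells, 62 had at most 157.2 TPM and 6 had 553 to 822 TPM, with no cell between. These 6 cells were like the rest in 18S, at 41501 to 71620 TPM (median 55402 TPM), against a median of 57001 TPM in the other 62. Their 28S to 18S ratio was 0.816% to 1.44%. Their summed ribosomal protein level was 64206 to 112115 TPM (median 83025 TPM), against a median of 104056 TPM in the 62. They had 12646 to 15932 genes detected (8950 to 15930 in the other 62) and 1.5 to 2.6 M reads. The 6 cells were noticed by their 28S level and no test was run on them.

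By level, the order of the groups in 18S was live HCT-116, fixed HCT-116, live HepG2 and fixed HepG2. The ranges of fixed HCT-116 and live HepG2 cells overlapped, as did those of live and fixed HepG2 cells. In 28S the order of the medians was fixed HCT-116, fixed HepG2, live HCT-116 and live HepG2, and the ranges of neighbours overlapped throughout. Mean 18S was 4.63-fold higher in HCT-116 than in HepG2 among live cells and 3.38-fold higher among fixed cells. Mean 28S was 1.82-fold and 1.72-fold higher.

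18S took the first rank among all rows in 91 of 91 live HCT-116 cells, but in 14 of 92 fixed ones, where its median rank was 3. In HepG2 it ranked first in 1 of 68 live and 0 of 83 fixed cells, with a median rank of 4 in both groups. The median rank of 28S was 350 in live HCT-116 cells and 120 in fixed ones, and 1009.5 in live HepG2 cells.

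The spread between cells also differed between the 2 molecules. The coefficient of variation (SD over mean) of 18S was 0.189 in live HCT-116 cells and 0.275 in fixed ones, and 0.310 and 0.367 for HepG2. Among genes with a mean of at least 100 TPM, 4.04% varied less than 18S in live HCT-116 cells, 13.4% in fixed ones, 22.2% in live HepG2 cells and 50.1% in fixed ones. For 28S the coefficients were 0.398 and 0.372 for HCT-116 and 1.16 and 0.712 for HepG2, live before fixed. Of genes at this level, 67.6% varied less than 28S in live HCT-116 cells, 43.4% in fixed HCT-116 cells, 98.1% in live HepG2 cells and 91.7% in fixed HepG2 cells. In live HepG2 the coefficient was 0.285 over the 62 cells of at most 157.2 TPM.

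Together the 2 rows made up a large part of live HCT-116 libraries. Their share of the listed TPM ranged from 16.7% to 40.5% (median 24.8%) in live and from 3.89% to 14.1% (median 7.65%) in fixed cells. In HepG2 it ranged from 0.0859% to 8.53% (median 6.85%) in live and from 0.485% to 5.44% (median 2.46%) in fixed cells. Nearly all of this was 18S. Counted as reads rather than TPM, 18S took a median of 35.9% of the assigned reads of a live HCT-116 cell and 12.3% of a fixed one, and 12.3% and 4.37% in HepG2. The medians for 28S reads went from 0.109% in live to 0.545% in fixed HCT-116 cells, and from 0.0519% to 0.318% in HepG2. In number, this was a median of 736552 reads of 18S and 2369 reads of 28S in a live HCT-116 cell, so that counting error is small at these counts. In live HepG2 cells 28S had a median of 1003 reads and a lowest value of 59.3 reads.

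The ratio of 28S to 18S was higher in fixed cells. It is set by both rows of the same cell and does not depend on how the cell was scaled. It can depend on how reads were divided between 28S and the precursor row. In the 13 live HCT-116 cells with the precursor row above 28S its median was 0.0444%, against 0.108% in the other 78. In live HCT-116 cells it ranged from 0% to 0.395%, with a median of 0.102%. Fixed HCT-116 cells ranged from 0.248% to 3.65%, with a median of 1.46%. Of the fixed cells, 90 of 92 were above the highest live cell, and the ratio of the medians was 14.4. The other 2 fixed cells, at 0.248% and 0.262%, had 131.3 and 256 TPM of 28S beside 52951 and 97856 TPM of 18S, and the next lowest cell had 0.902%.

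In live HepG2 cells the 28S to 18S ratio ranged from 0.0797% to 2.56%, with a median of 0.171%. Fixed HepG2 cells ranged from 0.287% to 10.0%, with a median of 2.75%. All 83 fixed cells were above the live median, 49 were above the highest live cell, and the ratio of the medians was 16. The highest live value was that of the column with 20.5% of its reads assigned. Without that column the highest live value was 1.44% and 75 of 83 fixed cells were above it, while the count stayed at 49 without the identical or the 6 very similar columns. The live median was 0.170% without either live column, and the fixed median 2.75% without the identical and 2.88% without the 6 similar columns. Equal levels of 18S and 28S would give 100%, so that 28S was far below 18S in every cell of the 4 groups.

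**Figure D2:**
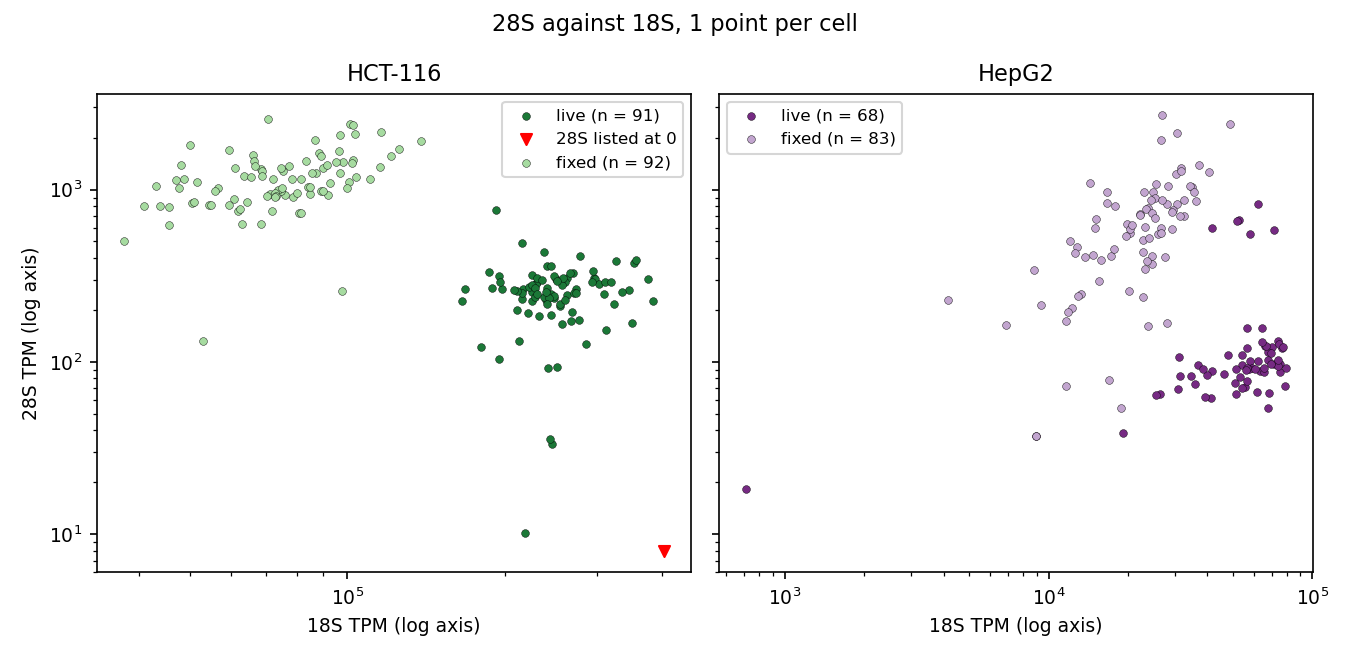
28S TPM against 18S TPM (log axes) in HCT-116 (left) and HepG2 (right), with 1 point per cell. Most fixed cells sit up and to the left of the live cells, with overlap in HepG2, and 2 fixed HCT-116 cells lie lower, at 131.3 and 256 TPM of 28S; the 6 live HepG2 cells with 553 to 822 TPM of 28S stand above the other live cells.

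Within groups, cells with more 18S tended to have more 28S in 3 of 4 groups. Spearman's rho was 0.049 in live HCT-116 (91 cells), 0.49 in fixed HCT-116 (92 cells), 0.45 in live HepG2 (68 cells) and 0.68 in fixed HepG2 cells (83 cells). On log2(TPM + 1), Pearson's r was -0.14, 0.42, 0.43 and 0.63. Both rows share the cell's library and total, and the cells of a group are not separate samples, so that these are descriptions. Without the identical columns the rho was 0.43 in live and 0.67 in fixed HepG2 cells. It was also 0.43 in live HepG2 cells without the column of few assigned reads, and 0.70 in fixed ones without the 6 similar columns. Total reads had a rho with 18S of -0.14, -0.35, 0.077 and 0.15 in the same order of groups. Given total reads, the rho of 18S with 28S was 0.063, 0.41, 0.45 and 0.68.

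The other rows of the rDNA repeat and 5S did not all follow 18S or 28S. The 45S precursor had a mean of 85 ± 71.3 TPM in live HCT-116 cells and 103.1 ± 44.1 TPM in fixed ones (SD over cells), a ratio of 1.21. In HepG2 the mean was 17.4 ± 9.63 TPM in live cells and 5.56 ± 5.49 TPM in fixed ones, a ratio of 0.319. In fixed HCT-116, 84 of 92 cells were above the live median, and in fixed HepG2 80 of 83 were below it. 5.8S, which pairs with 28S in the large subunit, was above 0 in 48 of 91 live HCT-116 cells (52.7%, exact 95% interval 42 to 63.3), but in 11 of 92 fixed ones (12%, 6.12 to 20.4). In HepG2 the count was 23 of 68 for live cells (33.8%, 22.8 to 46.3), and 58 of 83 for fixed ones (69.9%, 58.8 to 79.5). These intervals cover the drawing of cells only, as if each cell were a separate sample, which the cells of a group are not. They do not compare live with fixed cells. Where 5.8S was seen, a cell had few reads of it, with a highest value of 23.6 reads in live HCT-116 cells. The 5S rows were at 0 in 74 of 91 live and 85 of 92 fixed HCT-116 cells, and in 50 of 68 live and 70 of 83 fixed HepG2 cells.

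28S and the precursor shared their cells' values in an opposite way in live and fixed HCT-116 cells. Spearman's rho between them was -0.46 in live HCT-116 cells and 0.79 in fixed ones, 0.11 in live HepG2 cells and 0.84 in fixed ones. In 13 of 91 live HCT-116 cells the precursor row was above the 28S row, with a median of 219 TPM for 45S and 104.3 TPM for 28S. The cell with 28S at 0 had the highest 45S of its group, 344 TPM. Added together, 28S and 45S had a median of 297 TPM in these 13 cells and of 327 TPM in the other 78, and the coefficient of variation of the sum was 0.242. The sum was 3.80-fold higher in fixed than in live HCT-116 cells and 4.4-fold higher in fixed HepG2 cells. TPM is divided by length and 45S is longer than 28S, so that this sum is not a sum of reads. In reads, live HCT-116 cells had medians of 1433 for 45S and 2369 for 28S. How the quantification divided reads between the rows was not tested.

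**Figure D3:**
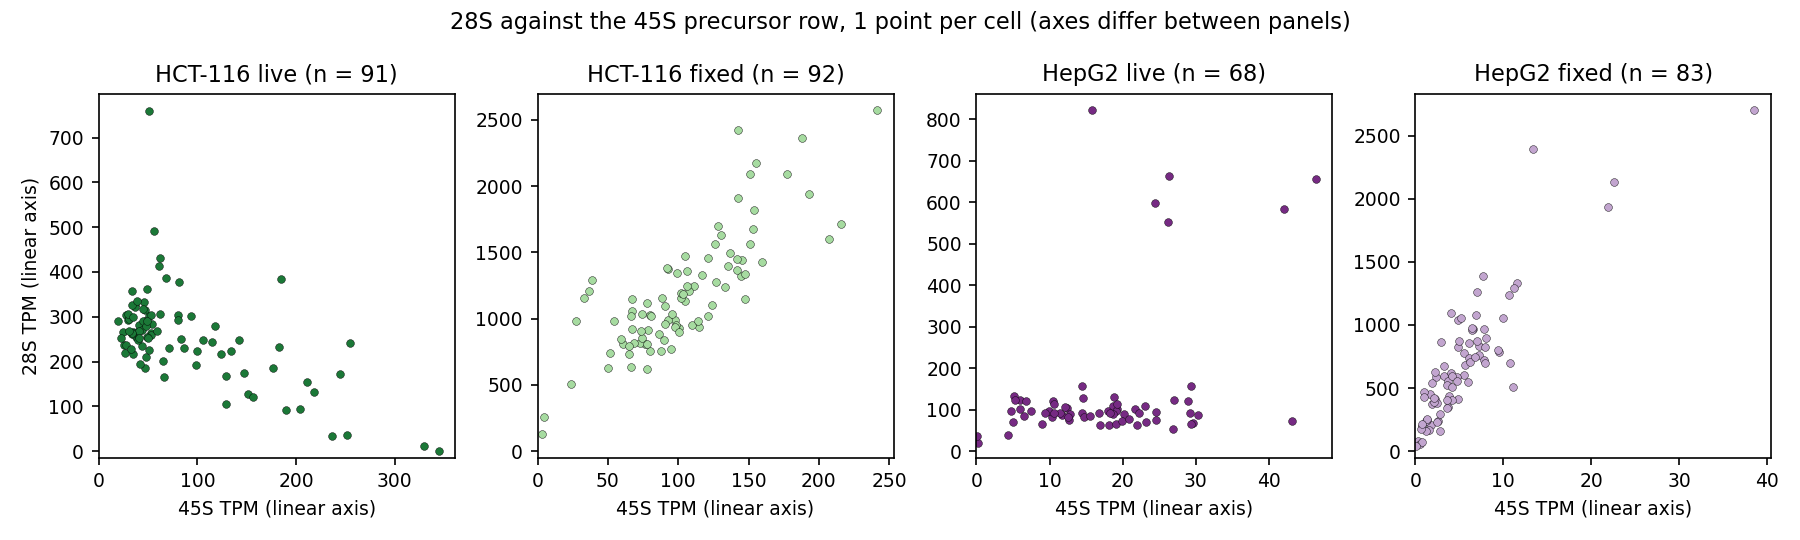
28S TPM against 45S TPM (linear axes, which differ between panels) in each group, with 1 point per cell. In live HCT-116 cells the points fall from left to right (rho -0.46), in fixed cells of both lines they rise (0.79 and 0.84), and in live HepG2 cells 6 points stand above a flat band.

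The levels were set beside genes of similar length and GC content, from reference transcripts that covered 89.1% of the genes tested in HCT-116 and 87% in HepG2. Genes of at least 4000 bases and at least 60% GC, a class that also holds 28S by its sequence, had a median ratio of fixed to live of 0.512 in HCT-116 (194 genes) and 0.581 in HepG2 (198 genes). In this class 0 genes had a ratio above that of 28S in either line, and 4 genes in each line were at least 2-fold higher. Genes of 1500 to 2500 bases with 50 to 60% GC, a class that also holds 18S, had a median ratio of 1.02 (770 genes) and 1.05 (787 genes), and 9 and 33 of them were below the ratio of 18S. Both members lay at the edge of the ratios of genes like them in length and GC content, 28S on the high and 18S on the low side. The rows were chosen with the difference in 18S known, so that this position is a description only. The part of length and GC content in the levels was not tested.

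TPM is relative to all transcripts of a cell, so that a lower share of 18S leaves more to the other rows. The listed genes summed to 0.975 to 1.00 M TPM in HCT-116 cells, 0.757 to 0.954 M TPM in live HepG2 cells and 0.758 to 1.00 M TPM in fixed HepG2 cells. The median log2 ratio of all genes, fixed over live, was 0.17 as deposited and -0.16 with 18S and 28S left out and each cell rescaled to the sum it had in HCT-116, so that the share of genes higher in fixed cells went from 61.3% to 35.1%. In HepG2 the medians were 0.15 and 0.09, and the shares 59.9% and 56.1%. The share of genes at least 2-fold lower in HCT-116 was 8.84% as deposited and 14.8% with the rRNA left out, and the share at least 2-fold higher 2.99% and 1.66%. In HepG2 these shares were 9.76% and 10.6%, and 4.89% and 4.31%. The gene lists that follow are given with the rRNA left out.

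Genes of the 79 cytosolic ribosomal proteins, which assemble with 18S and 28S, did not follow 18S down or 28S up by as much. As deposited, 78 of 79 had a higher mean in fixed HCT-116 cells (median ratio 1.34) and 79 of 79 in HepG2 (1.30). With the rRNA left out, 61 of 79 did so in HCT-116 (median ratio 1.08) and 78 of 79 in HepG2 (1.25), beside 35.1% and 56.1% of all genes. 0 of the 79 were 2-fold higher or lower in either line. Of all genes, 14.8% in HCT-116 and 10.6% in HepG2 were at least 2-fold lower, and 1.66% and 4.31% higher. Among the lowest in HCT-116 were RPS2 (2128 ± 491 TPM in live cells and 1635 ± 386 TPM in fixed ones, ratio 0.768), RPL8, FAU and RPL38, and the highest were RPL37 (353 ± 87.5 TPM and 462 ± 138.3 TPM, ratio 1.31), RPLP0, RPL34, RPL6 and RPS24. In HepG2 the lowest were RPL8 (1993 ± 398 TPM and 1939 ± 534 TPM, ratio 0.973), RPLP2, RPS13, RPS9 and RPL13, and the highest RPS26 (515 ± 145.1 TPM and 845 ± 239 TPM, ratio 1.64), RPL11, RPS19, RPL22 and RPL35A. Ribosomal protein genes have many processed copies in the genome, so that single values depend on how reads were divided among them.

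Genes that make rRNA were divided. Of 56 genes of rRNA processing and the nucleolus, 10 were at least 2-fold lower in fixed HCT-116 cells and 7 in fixed HepG2 cells, and 0 were 2-fold higher. These counts are near the shares over all genes, of which 14.8% and 10.6% were at least 2-fold lower and 1.66% and 4.31% higher. Lowest in both lines were TCOF1 (treacle, which acts in rDNA transcription), RRP1 and RRS1, both factors of large subunit assembly. In HCT-116, TCOF1 went from 35.7 ± 18.1 TPM in live to 5.86 ± 4.93 TPM in fixed cells, a ratio of 0.164, and a ratio of 0.257 in HepG2. RRP1 had ratios of 0.184 and 0.207, and RRS1 of 0.223 and 0.273. The highest were HEATR1 (1.26), RIOK2 (1.26) and NPM1 (1.24), the abundant nucleolar phosphoprotein, in HCT-116, and UTP20 (1.79), HEATR1 (1.56) and NOP10 (1.5) in HepG2. The median of the list was 0.970 in HCT-116 and 1.02 in HepG2, against 0.896 and 1.06 over all genes.

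**Figure D4:**
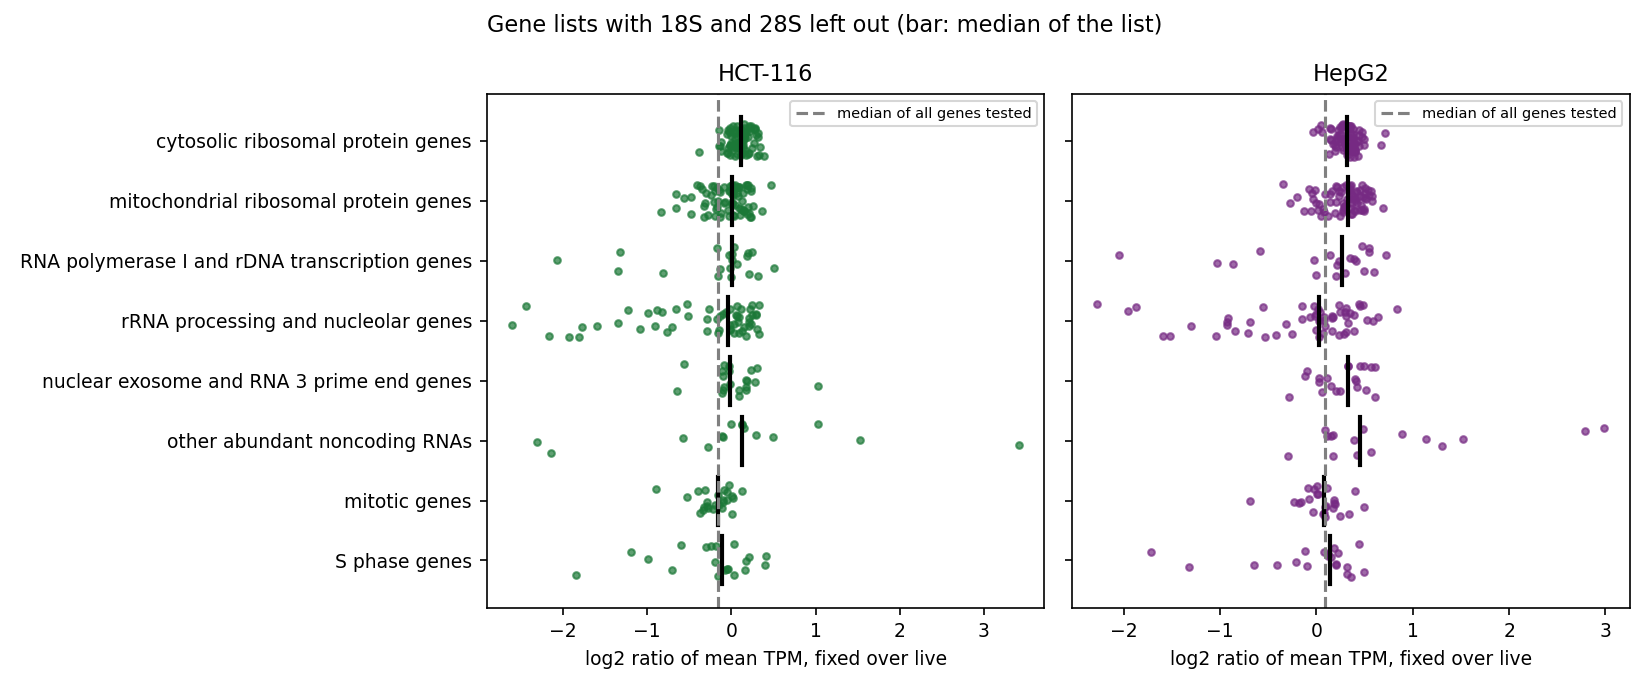
Log2 ratio of mean TPM, fixed over live, with 18S and 28S left out, for each gene (point) of 8 lists in HCT-116 (left) and HepG2 (right), with a bar at the median of the list and a dashed line at the median of all genes (-0.16 and 0.09). The cytosolic ribosomal protein genes lie close together at medians of 0.11 and 0.32, while the rRNA processing list has a tail to the left down to -2.61 and -2.27.

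Of 20 genes of RNA polymerase I and rDNA transcription, 3 were at least 2-fold lower in fixed HCT-116 cells and 2 in HepG2. TAF1C, a subunit of the promoter selectivity factor SL1, was lowest in both lines, with 14.4 ± 7.78 TPM in live HCT-116 cells and 3.43 ± 4.05 TPM in fixed ones (ratio 0.238) and a ratio of 0.242 in HepG2. UBTF, which binds the rDNA promoter and gene body, had ratios of 0.392 and 0.550, and the polymerase I subunit gene CD3EAP 0.401 and 0.489. At the upper end were TTF1 (1.42), TAF1A (1.24) and POLR2F (1.18) in HCT-116, and ZNRD1 (1.65), POLR1C (1.52) and POLR1D (1.46) in HepG2. The background for 2-fold lower means was 14.8% in HCT-116 and 10.6% in HepG2, or about the share found in both of these lists.

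Genes of the nuclear exosome and of RNA 3′ ends, which trim and tail rRNA precursors, had a median ratio of 0.990 in HCT-116, with 10 of 21 above 1, and of 1.25 in HepG2, with 18 of 21 above 1. The median ratio of all genes was 0.896 and 1.06. 1 of 21 was 2-fold higher in fixed HCT-116 cells and 0 in HepG2, beside 1.66% and 4.31% of all genes. It was PAPD7, a poly(A) polymerase of the nucleus, with 1.70 ± 2.74 TPM in live cells and 3.48 ± 4.62 TPM in fixed ones. With a pseudocount of 1 TPM it did not pass 2-fold. 0 of 21 were 2-fold lower in either line, beside 14.8% and 10.6% of all genes. The exosome subunit genes EXOSC4 (0.637), EXOSC6 (0.676) and EXOSC10 (0.924) were lowest in HCT-116, followed upward to PAPD5 (1.24) and ZCCHC7 (1.21). In HepG2 the lowest were EXOSC4 (0.818), EXOSC5 (0.923) and EXOSC2 (0.936) and the highest PAPD5 (1.53), MPHOSPH6 (1.52) and ZCCHC7 (1.48).

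Of the 79 mitochondrial ribosomal protein genes, whose products bind other rRNAs, 78 were tested, 0 passed 2-fold, and the median ratio was 1.01 in HCT-116 and 1.25 in HepG2. Of all genes, 14.8% and 10.6% were at least 2-fold lower and 1.66% and 4.31% higher, with median ratios of 0.896 and 1.06. Lowest were MRPL23 (0.559), MRPS26 (0.635) and MRPL4 (0.636) in HCT-116, and MRPL49 (0.785), MRPS26 (0.828) and MRPL4 (0.870) in HepG2. Highest were MRPL24 (1.39), MRPL1 (1.28) and DAP3 (1.19), and MRPL34 (1.62), MRPL20 (1.5) and MRPS18C (1.49).

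Other abundant RNAs without a coding function included some that moved like 28S. RN7SL2, an RNA of the signal recognition particle, averaged 6.10 ± 9.66 TPM in live HCT-116 cells and 65.2 ± 54.4 TPM in fixed ones (10.7-fold higher) and was 6.90-fold higher in HepG2. Its near-identical copy RN7SL1 was 2.89-fold higher in HCT-116 and 1.86-fold in HepG2, and reads of the 2 can be exchanged. In HCT-116 3 of 15 were at least 2-fold higher (RN7SL2, RN7SL1 and MALAT1, at 2.04-fold) and 2 were 2-fold lower, against 1.66% and 14.8% of all genes. The lower ones were RPPH1 (ratio 0.201), the RNA of RNase P, and RMRP (0.227), the RNA of RNase MRP, which cuts the rRNA precursor. In HepG2 5 of 16 were 2-fold higher, among them TERC (0.519 ± 1.74 TPM in live cells and 4.12 ± 4.32 TPM in fixed ones), RN7SK (2.88-fold) and RMRP (2.21-fold), and 0 were 2-fold lower, against 4.31% and 10.6% of all genes. Lowest there were EPB41L4A-AS1 (0.817), MALAT1 (1.07) and RPPH1 (1.08), and in HCT-116 SNHG1 (0.672) came after RMRP.

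The share of rRNA was set beside the number of genes detected (TPM above 0), which had a median of 12031 in live HCT-116 cells and 10359 in fixed ones, and of 13887 and 12293 for HepG2. Spearman's rho of the share with genes detected was -0.27 in live HCT-116 cells, -0.21 in fixed HCT-116 cells, 0.14 in live HepG2 cells and 0.30 in fixed HepG2 cells. Given total reads it was -0.25, 0.15, 0.19 and 0.28, and thus turned from negative to positive in fixed HCT-116 cells, where cells with more reads had a lower share of rRNA (rho -0.36). Counting genes above 1 TPM with the rRNA left out gave -0.10, -0.15, 0.18 and 0.29. These relations were weak in all 4 groups. Without the 6 very similar columns, the value in fixed HepG2 cells was 0.43, and without the identical columns 0.28. In live HepG2 cells it was 0.098 without the identical columns or without the column of few assigned reads.

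**Figure D5:**
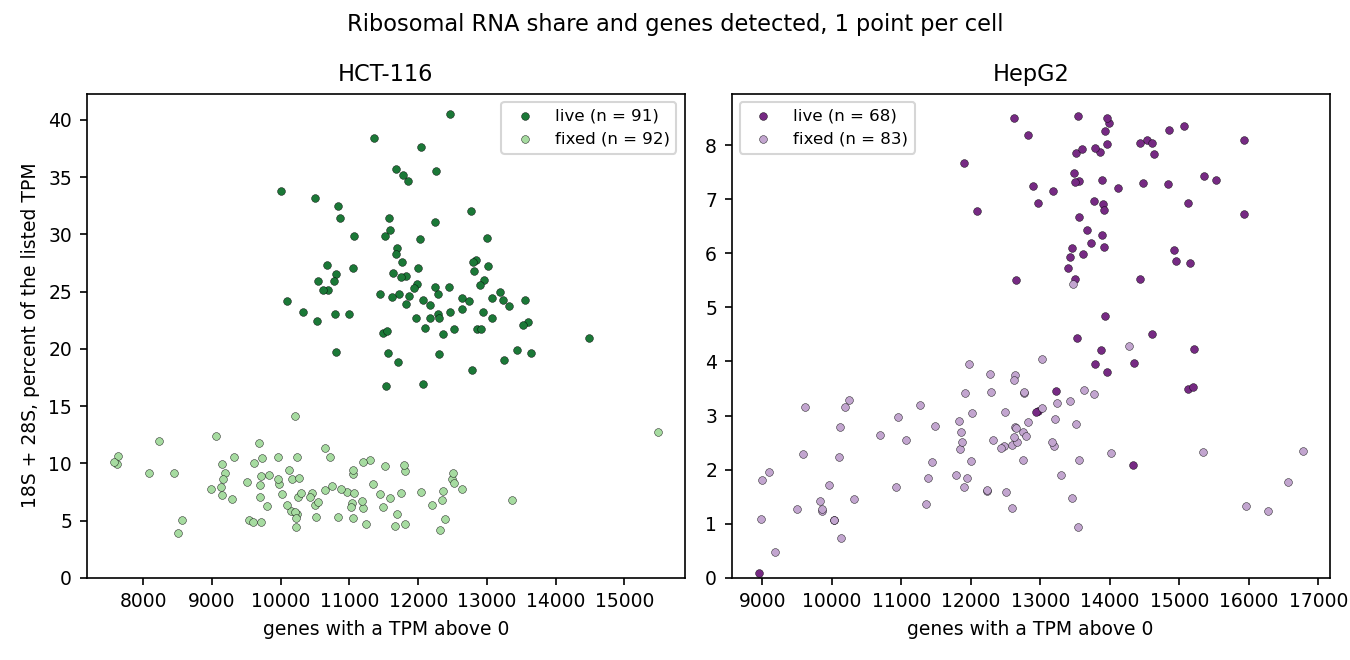
Share of the listed TPM taken by 18S and 28S (percent, linear axis) against the number of genes with a TPM above 0, in HCT-116 (left) and HepG2 (right), with 1 point per cell. Live and fixed HCT-116 cells form separate bands in the share (16.7% to 40.5% and 3.89% to 14.1%) across a wide range of genes detected, while the HepG2 groups overlap.

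Cells with a higher share of rRNA tended to have more ribosomal protein RNA in HCT-116, on the scale with the rRNA left out. The rho with the summed ribosomal protein level was 0.34 in live HCT-116 cells, 0.23 in fixed HCT-116 cells, 0.073 in live HepG2 cells and 0.16 in fixed HepG2 cells. As deposited, where a cell with more 18S has less room for all other rows, it was -0.13, 0.090, -0.034 and 0.11, and thus negative in live HCT-116 cells. Given total reads it was 0.34, 0.074, 0.071 and 0.17. In live HepG2 cells it was 0.12 without the identical columns and 0.031 without the column of few assigned reads, and in fixed ones 0.20 without the identical columns and 0.19 without the 6 similar columns. Of the 79 genes, 64 had a rho above 0 with the share of rRNA in live HCT-116 cells, 76 in fixed HCT-116 cells, 59 in live HepG2 cells and 65 in fixed HepG2 cells, beside 63.7%, 36.4%, 63.4% and 55.1% of 5894 genes. The highest were RPL4 in live HCT-116 (0.65), RPS28 in fixed HCT-116 (0.42) and RPLP2 in live and fixed HepG2 cells (0.43 and 0.38). The rho of 28S alone with the ribosomal protein sum was 0.17, 0.45, -0.043 and -0.030.

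The genes most like 18S across cells were found by the lowest of the 4 within-group rho values, among 5894 genes with a mean of at least 5 TPM in every group. Among the first 5 were RPS28 (0.41, 0.41, 0.25 and 0.28 in live HCT-116, fixed HCT-116, live HepG2 and fixed HepG2 cells), GSR (0.25, 0.28, 0.30 and 0.28), RPSA and EEF2. RPS28 and RPSA are proteins of the small subunit, EEF2 is the translation elongation factor, and GSR makes reduced glutathione. Most opposite were ERH (-0.22, -0.35, -0.34 and -0.41), MIR4461 (-0.49, -0.33, -0.13 and -0.14), PSMD10, MIR6723 and LARP7. MIR4461 and MIR6723 were themselves among the 3 highest rows of fixed HCT-116 cells by mean, at 101496 ± 32005 TPM and 98744 ± 29276 TPM. For 28S the same rule gave ELF3, an epithelial transcription factor (0.33, 0.36, 0.33 and 0.31), NEAT1, the RNA scaffold of paraspeckles (0.31, 0.22, 0.31 and 0.30), RPS28, RPLP2 and POLD4. Most opposite to 28S were SRP9 (-0.39, -0.46, -0.33 and -0.34), a protein of the signal recognition particle, MRPS18B, the cap-binding EIF4E, PSMA2 and PSMD10. No rho of the genes so chosen exceeded 0.53 in size.

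Genes of cell division were set beside the rRNA as a further state of the cell. With the rRNA left out, 0 of 25 mitotic genes and 2 of 20 S phase genes (MCM2 and UHRF1, chosen after their values were seen) passed 2-fold in HCT-116, both lower in fixed cells, and in HepG2 0 mitotic genes and the same 2 S phase genes did so. Beside the 14.8% and 10.6% of all genes that were at least 2-fold lower, this is near or below the background. In HepG2 cells paired on total reads, however, some mitotic genes were at least 2-fold higher. Their share was above that of all genes, as given with the alternatives below. The rho of 18S with the mitotic sum was -0.12 in live HCT-116 cells, -0.15 in fixed HCT-116 cells, 0.095 in live HepG2 cells and -0.084 in fixed HepG2 cells. For 28S it was -0.23, -0.42, -0.0096 and -0.26.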

How the data were processed

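Reads of single cells were quantified by the authors with kallisto 0.46.0 on GRCh38 transcripts (FastQC was used for read quality) and summed to genes with tximport. Gene tables were deposited as TPM, 1 table a line. The tables of transcripts, whose names say TPM, hold CPM as deposited: the authors' values are not divided by transcript length, and their steps give total reads to the nearest 0.1 M. The study kept cells with over 4000 genes. Depth was 0.2 to 5.3 M reads per cell.

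The 2 members, the gene lists and the rule on named genes were chosen with earlier results of these data known. The rule names every rRNA row, the 5 highest and 5 lowest cytosolic ribosomal protein genes by ratio of means in each line, the 3 highest and 3 lowest of each other list apart from mitotic and S phase genes and markers, and the 5 genes most like and most opposite to 18S; the same for 28S was added after seeing the data. Some of the genes so named are not reported here. Genes with a mean of at least 1 TPM over both groups were tested, and called past 2-fold. For list ratios, 18S and 28S were removed and each cell rescaled to its former sum. A cell's total was its listed TPM. Sequences came from RefSeq coordinates on GRCh38, and lengths and GC content from GENCODE reference transcripts. RefSeq versions of the rRNA sequences are later than those in the tables. A further 12 labelled cells had no column and were not analysed here. Column numbers do not match the cell titles, so that columns were placed by line and treatment only.

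Alternatives were other units, medians, a median-ratio scaling over genes in at least 90% of cells, pseudocounts of 1 TPM, cells paired on total reads, and the identical columns left out; leaving out the column of few assigned reads or the 6 similar columns, and rescaling every cell to the same sum, were added after seeing the data. Python 3.11.15, numpy 2.4.6, pandas 2.3.3, scipy 1.17.1, matplotlib 3.10.9 and pysam 0.24.0 were used. The fold calls were tested on simulated data with 200 changed genes, of which 100% were recovered in each line. The changes were set well past the 2-fold cut and every gene was detected in every simulated cell, so that this was an easy case. These data held 7283 genes for HCT-116 and 7416 for HepG2, fewer than the 12395 and 12628 genes tested with the rRNA left out. Recovery of ratios near 2-fold, or in genes of low level, was not tested.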

Additional observations from a re-analysis of the deposited data

Results flagged for a closer look

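The 45S precursor row went in opposite directions in the 2 lines: the log2 ratio of means, fixed over live, was 0.28 in HCT-116 and -1.65 in HepG2. 5.8S went the other way round, at -3.07 in HCT-116 and 1.42 in HepG2. RMRP, the RNA of RNase MRP, had -2.14 in HCT-116 and 1.14 in HepG2, with the rRNA left out. The difference between the lines was not tested in any of the 3, since each line and treatment is 1 sample. The means of all 3 were at most 103.1 TPM in any group. 5.8S had few reads, with a highest group median of 0.94 reads per cell, in fixed HepG2 cells. 45S had more, with medians of 1433 and 2011 reads in live and fixed HCT-116 cells, and of 461 and 99.8 reads in HepG2.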

How the results depend on the processing

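The log2 ratios of 18S and of 28S moved by less than the SD over cells under every alternative, 26 values in all, and none changed sign; 18S stayed between 0.264 and 0.422 times its live mean and 28S between 3.53 and 6.54 times. As a share of assigned reads, the mean rRNA percent was 36.6 and 13.4 in live and fixed HCT-116 cells, and 11.4 and 4.76 in HepG2. The 28S to 18S ratio of reads was 0.301% in live HCT-116 cells, 4.27% in fixed ones and 8.02% in fixed HepG2 cells, by construction, since reads are not divided by length. By Pearson's r on log2(TPM + 1), 18S and 28S had -0.14 in live HCT-116 cells. The rho of the rRNA share with genes detected was -0.10 in live HCT-116 cells for genes above 1 TPM with the rRNA left out, 0.15 in fixed HCT-116 cells given total reads, and 0.43 in fixed HepG2 cells without the 6 similar columns, and Pearson's r was 0.35 in live HepG2 cells. With ribosomal protein genes, TPM as deposited gave -0.13 and 0.090 in live and fixed HCT-116 cells and -0.034 in live HepG2 cells, total reads taken into account gave 0.074 in fixed HCT-116 cells, and Pearson's r was 0.28 in fixed HepG2 cells. The cause was not tested. Of all genes tested in HCT-116, 14.8% were at least 2-fold lower and 1.66% higher. These shares were 8.83% and 2.98% as deposited (18S and 28S not counted), 9.59% and 0.896% with a pseudocount of 1 TPM, and 4.42% and 0.479% with a pseudocount and no filter. In HepG2, against 10.6% lower and 4.31% higher, they were 6.83% and 1.84% with a pseudocount, and 3.20% and 0.927% with no filter, which adds genes of low levels to those tested. In single lists, the exosome gene higher in HCT-116 was 0 with a pseudocount (with or without the filter), the S phase genes lower in HCT-116 were 1 as deposited, the polymerase I genes lower in HepG2 were 1 as deposited and with a pseudocount (with or without the filter), the noncoding RNAs higher in HepG2 were 3 with a pseudocount (with or without the filter), and in HepG2 cells paired on total reads 6 mitotic genes and 1 S phase gene were at least 2-fold higher. The other counts of lists and shares of genes moved by at most 1.5 times. The share of all genes at least 2-fold higher in the paired HepG2 cells is among these. It thus lay within 1.5 times of the 4.31% over all cells, and 6 of 25 mitotic genes was a larger share. No paired analysis was possible because the numbers in the labels name single cells and no test was run.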
